A study of Mus musculus with 12 samples.

Results

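The genes described here encode the phase II detoxification enzymes, which attach a polar group to a foreign or endogenous compound so that it can leave the cell. They were chosen by name, as protein-coding genes whose symbol begins with Ugt1a, Ugt2a, Ugt2b, Ugt3a, Sult, Mgst or one of the cytosolic Gst classes (alpha, mu, pi, theta, omega, kappa and zeta), each followed by a number or letter where the symbol has one. The choice gave 67 genes of the 48448 genes with a transcript in the data, of which 21774 were protein-coding. Another 7 symbols that fitted the names were pseudogenes and were not used. Of the 67 members, 37 reached 1 FPKM (fragments mapped per kilobase of transcript, scaled to the size of the library) in at least 3 of the 12 libraries and were tested, and 30 did not.

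The data were RNA-seq profiles of mouse colon in 4 groups of 3 libraries, all from mice of the C57BL/6 strain with tumours of a model of colitis-associated cancer. In flox mice the gene for Synbindin (Trappc4, a subunit of the TRAPP vesicle-tethering complexes) carried floxed alleles, and in ΔIEC mice it was deleted in intestinal epithelial cells. From each genotype there were dissected tumours and the adjacent colon tissue, so that all 4 groups had been through the cancer model and no untreated colon was analysed here. The labels do not give the Cre driver, the sex or age of the mice or the inducing agents. They also do not say whether the libraries of a group came from separate animals, so a p-value here reflects library-to-library spread, which may be technical. Most adjacent libraries share a code in their descriptions with a tumour library. Whether a shared code marks the same animal is not stated, and the libraries were fitted as unpaired. The comparisons ask how conjugating enzymes differ between tumour and adjacent tissue and whether the loss of Synbindin changes them.

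UDP-glucuronosyltransferases (Ugt genes) sit in the endoplasmic reticulum and transfer glucuronic acid from UDP-glucuronic acid to bilirubin, bile acids, steroids, drugs and plant phenols. Cytosolic sulfotransferases (Sult genes) transfer sulfate from the donor PAPS, and glutathione S-transferases (Gst genes, with the membrane-bound Mgst genes) couple glutathione to electrophiles such as lipid peroxidation products. In the colon these enzymes are strongest in mature epithelial cells, which meet dietary and bacterial compounds first, and many of them are known targets of the aryl hydrocarbon receptor, of NRF2 (Nfe2l2) and of intestinal transcription factors of the Cdx family.

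Summed FPKM per library ranged from 534806 to 821487, and 14757 to 15893 genes reached 1 FPKM. The sequencing depth is unknown because FPKM values keep no read numbers, so low values carry no counting interval. Trappc4 was at 16.8, 17.0 and 17.4 FPKM in flox adjacent libraries 1 to 3 and at 10.2, 12.6 and 10.4 in ΔIEC adjacent libraries 1 to 3. In tumours it was at 18.7, 17.5 and 20.9 in flox mice and at 12.7, 11.4 and 9.91 in ΔIEC mice. In both tissues every ΔIEC library was below every flox library. All 12 general epithelial markers were measured, with a summed level of 7180 to 11880 FPKM in adjacent tissue and 5009 to 7200 FPKM in tumours. The colonocyte water channel Aqp8 and the carbonic anhydrase Car4 were among the absorptive markers measured. These markers summed to 2554 to 9850 FPKM in adjacent tissue, so the adjacent libraries held colonic epithelium as labelled. In tumours they summed to 271.3 to 557.4 FPKM, and Aqp8 and Car4 fell in both genotypes. The absorptive markers are therefore a weak check of the tumour libraries.

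Promoter sequences are shown for 5 members, 4 of which are of members that fell in tumours in both genotypes (Ugt1a1, Sult1a1, Sult1d1 and Gstm1) and 1 of a member that did not (Gstm5). The windows are the bases before the annotated start, 5′ to 3′ on the gene's strand, from RefSeq on GRCm38.p6, and 34 of the 37 tested members matched a RefSeq window, with 44 windows between them. Capitals mark matches on either strand to GCGTG, the core bound by the aryl hydrocarbon receptor, or to TGACNNNGC, the core of the antioxidant response element bound by NRF2. The windows of Ugt1a1 and Sult1a1 hold neither.
Ugt1a1, bilirubin glucuronosyltransferase, chr1:88211709-88211958, plus strand: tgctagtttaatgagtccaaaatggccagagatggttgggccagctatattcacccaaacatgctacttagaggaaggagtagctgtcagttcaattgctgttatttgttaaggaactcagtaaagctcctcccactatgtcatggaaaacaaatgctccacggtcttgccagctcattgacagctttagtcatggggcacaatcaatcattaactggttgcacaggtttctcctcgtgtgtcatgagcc
Sult1a1, phenol sulfotransferase, chr7:126676433-126676668, minus strand: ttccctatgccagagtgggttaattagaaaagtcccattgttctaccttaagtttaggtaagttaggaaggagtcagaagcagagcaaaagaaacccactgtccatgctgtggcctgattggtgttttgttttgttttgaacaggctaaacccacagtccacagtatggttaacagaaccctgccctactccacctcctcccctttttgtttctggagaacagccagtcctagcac
Sult1d1, a catechol sulfotransferase, chr5:87569028-87569256, minus strand: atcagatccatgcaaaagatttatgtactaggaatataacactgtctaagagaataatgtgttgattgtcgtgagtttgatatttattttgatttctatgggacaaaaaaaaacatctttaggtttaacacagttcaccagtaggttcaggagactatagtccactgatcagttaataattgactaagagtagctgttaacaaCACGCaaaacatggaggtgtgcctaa
Gstm1, mu-class transferase, chr3:108017974-108018223, minus strand: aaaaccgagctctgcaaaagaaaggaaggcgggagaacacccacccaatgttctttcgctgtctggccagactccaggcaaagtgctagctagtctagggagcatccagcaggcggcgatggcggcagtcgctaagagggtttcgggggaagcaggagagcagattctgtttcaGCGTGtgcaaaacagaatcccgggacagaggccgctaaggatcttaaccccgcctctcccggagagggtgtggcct
Gstm5, mu-class transferase, chr3:107895604-107895820, plus strand: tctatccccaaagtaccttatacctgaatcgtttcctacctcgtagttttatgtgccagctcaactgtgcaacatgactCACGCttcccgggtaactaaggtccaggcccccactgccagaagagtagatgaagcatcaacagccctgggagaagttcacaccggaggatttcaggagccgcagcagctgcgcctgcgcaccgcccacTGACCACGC

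Motifs were counted over the whole RefSeq window, from 250 bases before to 50 bases after the start, which is longer than the stretches printed. The antioxidant response element core was in 4 of the 44 windows, those of Gsta3, Gstm5, Gstm7 and Mgst1, against 12.39% of all 32851 windows of that length, and in Gstm5 it overlaps an aryl hydrocarbon receptor core on the other strand. The receptor core was in 12 windows (32.39% of all), and a Cdx site (TTTATAC, with TTTATAT and TTTATTG as its other forms) was in 4 (10.91% of all). A match is only a run of letters and does not show that a factor binds.

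The conjugating enzymes were lower in tumours than in adjacent tissue in both genotypes. In flox mice 27 of the 37 tested members fell and 0 rose at an adjusted p below 0.05 (limma with Benjamini-Hochberg adjustment over all 16970 genes tested). Over all genes 36.3% changed in that comparison, 19.7% downwards. In ΔIEC mice 25 of the 37 fell and 0 rose, where 29.4% of all genes changed and 15.5% fell. With a replicate block Gstm5 was called higher in ΔIEC mice, as given further on. Scaled to epithelial genes, as described further on, the calls were 20 lower and 7 higher in flox and 15 lower and 2 higher in ΔIEC mice. On that scale 3.62% of all genes were lower and 71.4% higher in flox mice, and 4.04% and 49.2% in ΔIEC mice. The median difference of the members, on the unscaled log2(FPKM + 1) values, was -1.77 in flox and -1.41 in ΔIEC mice, beside -0.01 and -0.03 over all genes. The same 24 members fell in both genotypes, whereas 13.1% of all genes did. All 6 tumours lay below all 6 adjacent libraries for 26 members, against 15.8% of all genes.

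**Figure D1:**
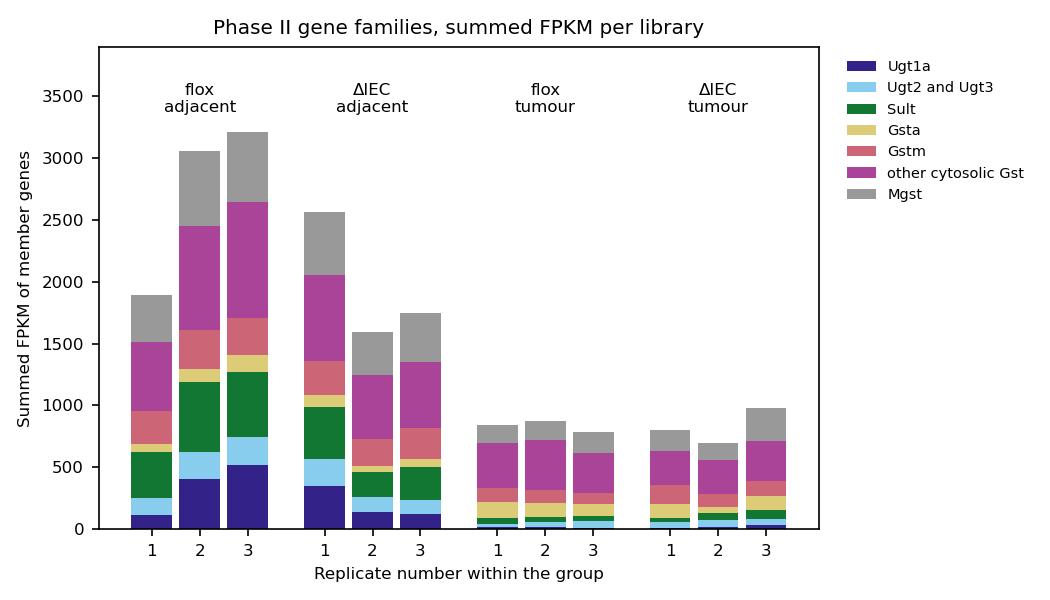
Summed FPKM of the member genes (y axis) in each of the 12 libraries (x axis, by group and replicate), with each bar divided by enzyme family. The 6 tumours sum to between 697 and 978 FPKM and the 6 adjacent libraries to between 1593 and 3212, while the Gsta segment is of similar height in both.

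The families differed in the part of their adjacent level that tumours held. The summed FPKM of the Ugt1a genes in tumours was 4.1% of that in adjacent tissue in flox mice and 9.3% in ΔIEC mice, and that of the Sult genes was 8.4% and 17.7%. The Ugt1a value of ΔIEC mice was 5.2% without ΔIEC tumour 3 and 14.4% without ΔIEC adjacent library 1. The other Ugt genes were at 21.5% and 34.7%, the Mgst genes at 30.1% and 45.4%, the Gstm genes at 36.1% and 50.7%, and the remaining cytosolic Gst genes at 46.5% and 50.4%. The Gsta genes were at 107.9% and 130.3%. Summed over all members, flox tumours held 834.5 ± 41.7 FPKM (SD, n = 3) against 2721 ± 721 in adjacent tissue, and ΔIEC tumours 824.7 ± 142 against 1970 ± 522. As a share of the FPKM of protein-coding genes the members took 0.362% to 0.644% in adjacent libraries and 0.193% to 0.25% in tumours.

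All 6 tested Ugt1a genes fell in both genotypes. They lie in one locus on chromosome 1, in which each gene has its own first exon joined to exons common to all. Ugt1a1 (ENSMUSG00000089960), the enzyme that clears bilirubin, was at 8.17, 82.8 and 102 FPKM in flox adjacent libraries 1 to 3 and at 69.6, 17.6 and 10.9 in ΔIEC adjacent libraries 1 to 3. Its tumour values were 1.53, 1.69 and 0.553 in flox mice and at 1.06, 0.374 and 1.19 in ΔIEC mice. Each tumour was below each adjacent library, although the adjacent libraries spanned a 12.5-fold range. The difference was -4.29 (SE 0.89, adjusted p = 0.00514) in flox mice and -3.77 (SE 0.89, adjusted p = 0.0119) in ΔIEC mice.

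Ugt1a6a, which conjugates simple phenols, was at 17.8, 132 and 167 FPKM in flox adjacent tissue and at 112, 36.2 and 26.6 in ΔIEC adjacent tissue. Its tumour values were 3.38, 3.14 and 1.07 in flox mice and 1.31, 1.57 and 6.23 in ΔIEC mice, again without overlap, and it fell by 4.48 and by 3.80 on the log2 scale (adjusted p = 0.00337 and 0.00951). Ugt1a7c, a phenol and carcinogen glucuronosyltransferase, was the most abundant Ugt1a gene, at 65.8, 148 and 189 FPKM in flox adjacent tissue and 123, 63.7 and 63.7 in ΔIEC adjacent tissue. The tumours were at 10.3, 7.74 and 4.41 in flox mice and at 3.64, 8.44 and 21.1 in ΔIEC mice. The lowest adjacent library was 3.02 times the highest tumour, ΔIEC tumour 3, and Ugt1a7c fell by 3.93 and by 3.02 (adjusted p = 0.00102 and 0.00495).

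The other 3 Ugt1a genes were less abundant and fell too. Ugt1a5 was at 8.15 to 29.6 FPKM in adjacent tissue and 0.565 to 2.76 in tumours, with differences of -3.12 in flox and -2.42 in ΔIEC mice. Ugt1a2 fell by 2.61 and by 2.05, and Ugt1a6b by 2.58 and by 2.02. Because of the common exons, 40.9% to 97.7% of the 50-base stretches of these transcripts also occur in another gene, so the split of signal among them is uncertain. Summed to 1 feature, the Ugt1a locus fell by 4.32 in flox mice (SE 0.69, adjusted p = 0.00145) and by 3.44 in ΔIEC mice (SE 0.69, adjusted p = 0.00602).

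**Figure D2:**
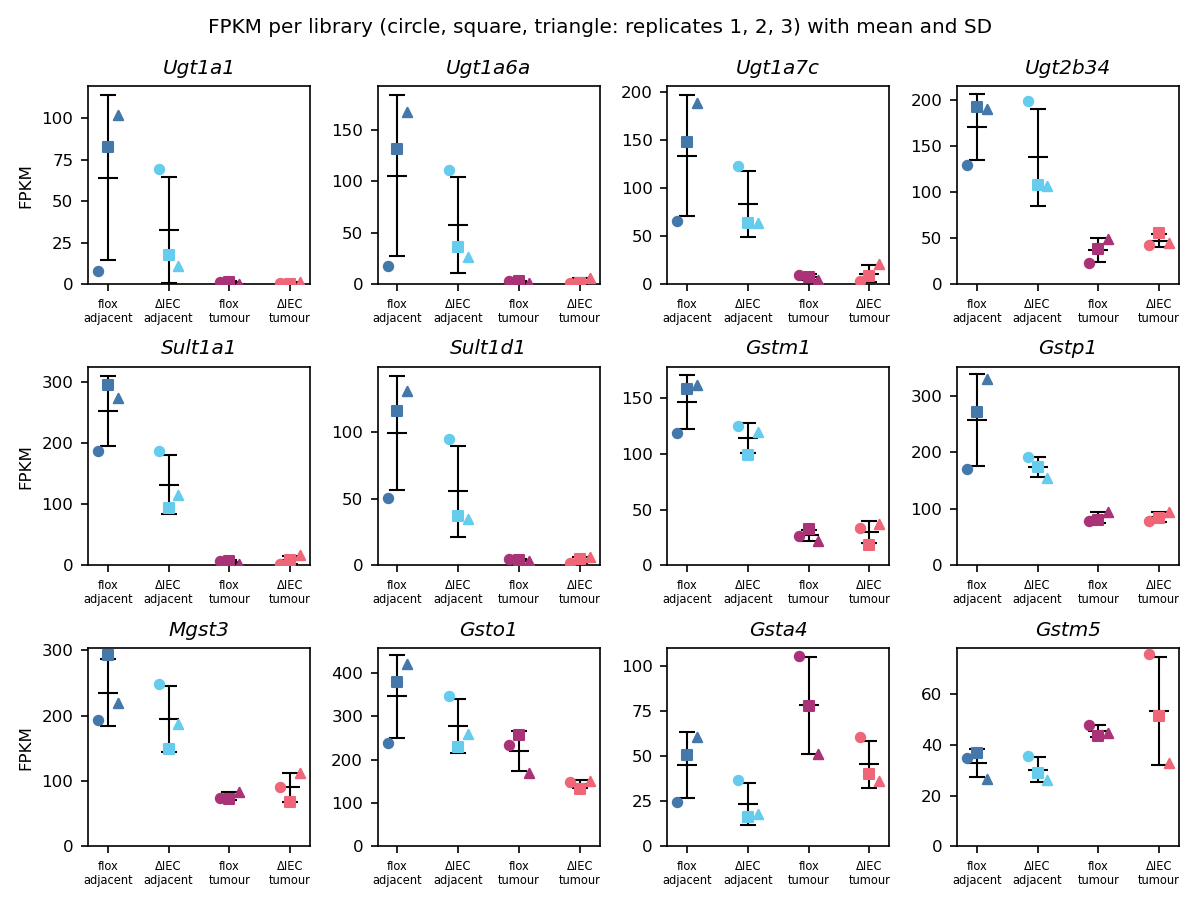
FPKM (y axis, from 0) of 12 members in the 4 groups (x axis), with each of 3 libraries as a point (circle, square and triangle for replicates 1, 2 and 3) and the mean with its SD in black. For Ugt1a1, Sult1a1, Sult1d1 and Gstm1 every tumour is below every adjacent library, whereas Gsta4 and Gstm5 have higher means in tumours.

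Outside the Ugt1a locus only 3 Ugt genes could be tested. Ugt2b34, a steroid-type glucuronosyltransferase and the most abundant Ugt gene of all, was at 130, 193 and 190 FPKM in flox adjacent tissue and at 199, 108 and 107 in ΔIEC adjacent tissue. In tumours it was at 23.5, 38.9 and 49.6 in flox mice and at 42.4, 55.8 and 44.8 in ΔIEC mice. No tumour reached an adjacent library, and Ugt2b34 fell by 2.20 and by 1.46 (SE 0.31 for both, adjusted p = 0.000752 and 0.00701).

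Ugt2b5 differed most among adjacent libraries, with 0.109, 17.3 and 28.2 FPKM in flox mice and 13.6, 3.97 and 0.0816 in ΔIEC mice. It was listed at 0 in 5 of 6 tumours and at 0.0222 in flox tumour 1. Each tumour was below each adjacent library. The difference of -3.06 in flox mice was not called (SE 1.16, adjusted p = 0.0638), and neither was that of -2.10 in ΔIEC mice (adjusted p = 0.199). Without flox adjacent library 1 the flox difference was -4.52 (adjusted p = 0.00376). It was also called with a pseudocount of 0.1 (-5.45, adjusted p = 0.0422) and without ΔIEC adjacent library 3 (0.0471). With protein-coding rescaling (0.0451) and epithelial scaling (0.0485) it was called as well. Ugt2b35 was at 5.80 to 8.20 FPKM in adjacent tissue and 1.59 to 7.10 in tumours, with overlap, and was not called (-0.71 and -0.57).

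Of the 6 tested sulfotransferases 5 fell in flox mice and 4 in ΔIEC mice. Sult1a1 (chromosome 7, 126672865 to 126676432 on GRCm38), which sulfates phenols and activates some dietary carcinogens, showed the largest difference of all members in both genotypes on the log2(FPKM + 1) scale. In ΔIEC mice Ugt1a1 was ahead of it with epithelial scaling, quantile normalization and protein-coding rescaling, and in both genotypes Ugt1a1 kept a smaller percentage of its adjacent mean (1.96% and 2.68%, against 2.25% and 7.14%). Sult1a1 was at 187, 295 and 274 FPKM in flox adjacent tissue and at 187, 93.9 and 115 in ΔIEC adjacent tissue. Its tumour values were 7.47, 6.86 and 2.68 in flox mice and 3.12, 8.70 and 16.5 in ΔIEC mice. The lowest adjacent library was 5.70 times the highest tumour, and Sult1a1 fell by 5.31 (SE 0.51, adjusted p = 0.000291) and by 3.85 (SE 0.51, adjusted p = 0.00141).

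Sult1d1 was at 50.5, 116 and 131 FPKM in flox adjacent tissue and at 94.9, 37.2 and 34.7 in ΔIEC adjacent tissue. In tumours it was at 4.47, 4.07 and 2.98 in flox mice and at 1.75, 4.60 and 6.18 in ΔIEC mice. The groups did not overlap, and the differences were -4.27 and -3.40 (adjusted p = 0.000412 and 0.00166). Sult1b1, which sulfates thyroid hormones and phenols, lies beside Sult1d1 on chromosome 5. It was at 106, 110 and 80.8 FPKM in flox and 95.9, 46.6 and 88.1 in ΔIEC adjacent tissue, and at 26.8, 14.5 and 24.6 in flox and 22.7, 24.7 and 31.1 in ΔIEC tumours. It kept a larger part of its adjacent level than its neighbour, at 22.2% and 34.0% of the mean, and fell by 2.15 and by 1.46 (adjusted p = 0.000687 and 0.0057).

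Sult2b1, the cholesterol sulfotransferase, fell by 1.52 and by 1.18 on the log2 scale. It was not called with epithelial scaling (adjusted p = 0.108 and 0.107), nor in ΔIEC mice with a minimum difference of 0.5 (0.163). Sult1c2 was at 7.93, 15.2 and 18.6 FPKM in flox and 10.9, 5.16 and 9.59 in ΔIEC adjacent tissue, and at 1.79, 1.43 and 0.502 in flox and 0.545, 2.51 and 6.60 in ΔIEC tumours. ΔIEC tumour 3 overlapped the adjacent libraries. Sult1c2 was called in flox mice only, at -2.71 (adjusted p = 0.00401) against -1.41 (adjusted p = 0.0715; -1.98 and 0.0142 without ΔIEC tumour 3), and the difference between the genotypes was itself not called (1.29, SE 0.76, adjusted p = 1). Sult6b1 lay near the 1 FPKM limit, at 0.552 to 1.43, and was not called in either genotype. The Sult2a genes, whose products sulfate bile acids and steroids in liver, were listed at 0 in every library, as were Sult1e1, Sult3a1 and Sult3a2.

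The mu-class genes lie in 1 cluster on chromosome 3, and their differences ran in both directions. Gstm1 was at 119, 158 and 162 FPKM in flox and 125, 99.4 and 120 in ΔIEC adjacent tissue, and at 26.5, 32.4 and 22.2 in flox and 33.5, 18.4 and 37.6 in ΔIEC tumours. The lowest adjacent library was 2.65 times the highest tumour, and Gstm1 fell by 2.40 (SE 0.25, adjusted p = 0.000344) and by 1.96 (SE 0.25, adjusted p = 0.00119). Gstm3 was at 18.0 to 33.2 FPKM in adjacent tissue and 0.917 to 4.62 in tumours, and fell by 3.51 and by 2.73. Gstm2 fell by 2.07 and by 1.63, and Gstm4 by 0.93 and by 0.63. The ΔIEC call of Gstm4 was lost with protein-coding rescaling (adjusted p = 0.07), epithelial scaling (0.916) and a test against a minimum log2 difference of 0.5 (0.877), without ΔIEC adjacent library 1 (0.051) and without ΔIEC tumour 1 (0.0546). Gstm6 was called in flox mice (-1.09, adjusted p = 0.00567) and just missed the threshold in ΔIEC mice (-0.68, adjusted p = 0.0517), where ΔIEC tumour 1 reached 8.49 FPKM beside 8.33 to 9.57 in adjacent tissue. Without that tumour Gstm6 was called (-0.98, adjusted p = 0.00719).

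Gstm5 and Gstm7, at the other end of the same cluster, had higher means in tumours. Gstm5 was at 35.1, 36.8 and 26.6 FPKM in flox and 35.9, 29.0 and 26.1 in ΔIEC adjacent tissue, and at 48.1, 43.6 and 44.8 in flox and 75.8, 51.6 and 33.1 in ΔIEC tumours. In flox mice the groups did not overlap, and Gstm5 was the only member with every tumour above every adjacent library (26.4% of all genes had that pattern). In ΔIEC mice tumour 3 lay within the adjacent range, and 0 members had every tumour above every adjacent library (20.8% of all genes). The differences of Gstm5, 0.47 (SE 0.25, adjusted p = 0.169) and 0.73 (SE 0.25, adjusted p = 0.0514), were not called. The ΔIEC rise was called with a replicate block by title number (adjusted p = 0.0267), which joins both genotypes, or description code (0.0494). It was also called with a filter of 5 FPKM (0.044) and without ΔIEC tumour 3 (0.00593). The flox rise was called with only the groups compared (0.0395). Gstm7 was at 3.84 to 8.46 FPKM in adjacent tissue and 3.78 to 19.1 in tumours, with overlap (0.41 and 0.61, not called).

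The alpha class held the other exception. Gsta4, which conjugates the lipid peroxidation product 4-hydroxynonenal, was at 24.7, 50.6 and 60.5 FPKM in flox adjacent tissue and at 36.8, 16.1 and 17.8 in ΔIEC adjacent tissue. In tumours it was at 105, 78.1 and 51.5 in flox mice and at 60.5, 40.1 and 36.3 in ΔIEC mice. In each genotype 1 tumour or more lay within the range of the adjacent libraries. The differences were 0.81 in flox mice (SE 0.41, adjusted p = 0.143) and 0.99 in ΔIEC mice (SE 0.41, adjusted p = 0.0936), and neither was called. Gsta1 and Gsta3 were not called either, at -0.97 and -0.40 in flox and -0.31 and -0.21 in ΔIEC mice. Of the 50-base stretches of the leading Gsta1 transcript 92.9% occur in another gene, and that transcript is annotated with a retained intron.

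**Figure D3:**
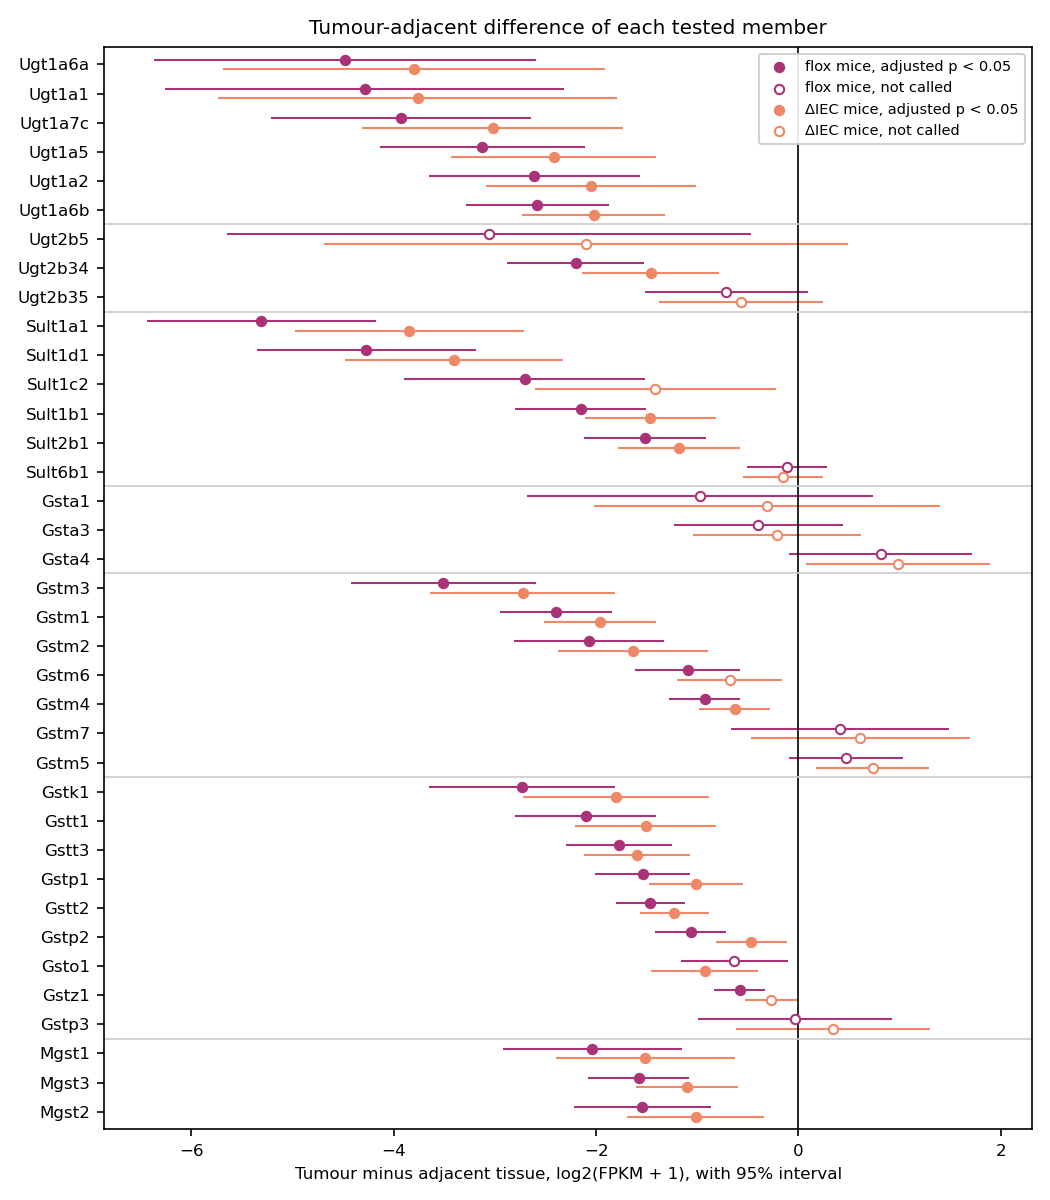
Difference between tumour and adjacent tissue (x axis, log2(FPKM + 1)) for each of the 37 tested members (y axis, by family), with its 95% interval, in flox and ΔIEC mice. Filled points are called and open points are not: all called points lie left of 0, and Gsta4, Gstm5 and Gstm7 lie right of it in both genotypes.

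Among the remaining cytosolic transferases 7 of 9 fell in each genotype. Gsto1, an omega-class enzyme that reduces glutathione mixed disulfides, was the most abundant member of all. It was at 238, 379 and 420 FPKM in flox and 347, 228 and 259 in ΔIEC adjacent tissue, and at 233, 257 and 169 in flox and 148, 132 and 151 in ΔIEC tumours. The flox groups overlapped and the ΔIEC groups did not. Gsto1 fell in ΔIEC mice (-0.93, SE 0.24, adjusted p = 0.0161) and missed the threshold in flox mice (-0.63, SE 0.24, adjusted p = 0.0599). The ΔIEC call was lost without ΔIEC adjacent library 1 (adjusted p = 0.0584) or ΔIEC tumour 2 (adjusted p = 0.0526). Quantile normalization (0.0715), epithelial scaling (-0.15, 0.605) and a minimum difference of 0.5 (0.358) lost it too. The flox difference was called lower without flox adjacent library 1 (-0.88, adjusted p = 0.0119) or ΔIEC adjacent library 1 (0.0463), and with median centring (0.0487). Epithelial scaling turned the flox difference to higher (0.56, adjusted p = 0.0458). The genotypes did not differ in the tumour difference of Gsto1 by their own test (-0.30, SE 0.34, adjusted p = 1).

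Gstp1, the pi-class enzyme best known as a marker of several carcinomas, was at 170, 271 and 330 FPKM in flox and 192, 175 and 156 in ΔIEC adjacent tissue. In tumours it was at 78.8, 80.5 and 95.4 in flox mice and at 78.1, 83.9 and 95.3 in ΔIEC mice. All tumours lay within a narrow range below all adjacent libraries, and Gstp1 fell by 1.54 and by 1.01 (SE 0.21, adjusted p = 0.000698 and 0.00672). Scaled to epithelial genes, Gstp1 was not called in flox (-0.35, adjusted p = 0.126) or ΔIEC mice (-0.24, adjusted p = 0.328). A minimum difference of 0.5 lost the ΔIEC call of Gstp1 (adjusted p = 0.178). Its neighbour Gstp2 fell by 1.07 and by 0.46, the latter close to the threshold (adjusted p = 0.0481) and not called after rescaling to the protein-coding total (-0.16, adjusted p = 0.398) or without any 1 of several libraries (adjusted p up to 0.146). Since 62.3% of the 50-base stretches of Gstp1 and 72.6% of those of Gstp2 occur elsewhere, mainly in each other, their sum was tested as well and fell by 1.46 and, as a difference of -0.92, in ΔIEC mice (adjusted p = 0.000625 and 0.00718).

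Gstk1, a kappa-class enzyme of mitochondria and peroxisomes, fell by 2.74 and by 1.80, from 18.9 to 68.0 FPKM in adjacent tissue to 4.18 to 9.39 in tumours. The theta-class genes Gstt1, Gstt2 and Gstt3 fell by 2.10, 1.47 and 1.77 in flox mice and by 1.51, 1.23 and 1.60 in ΔIEC mice. Gstz1, the maleylacetoacetate isomerase of tyrosine breakdown, was called in flox mice only (-0.58, adjusted p = 0.00387, against -0.27, adjusted p = 0.101). Its flox call was lost with protein-coding rescaling (-0.17, adjusted p = 0.338) and a minimum difference of 0.5 (adjusted p = 0.81), and turned to higher with epithelial scaling (0.52, adjusted p = 0.032). Gstp3 was not called (-0.03 and 0.34).

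All 3 membrane-bound transferases fell in both genotypes. Mgst3, which also acts as a glutathione peroxidase, was at 194, 292 and 219 FPKM in flox and 248, 149 and 187 in ΔIEC adjacent tissue, and at 74.6, 72.0 and 83.8 in flox and 90.5, 68.5 and 112 in ΔIEC tumours. Mgst2 was at 83.4, 169 and 182 in flox and 137, 96.3 and 82.0 in ΔIEC adjacent tissue, and at 38.7, 51.8 and 49.4 in flox and 43.9, 44.0 and 66.1 in ΔIEC tumours. Mgst1, a transferase of the endoplasmic reticulum and outer mitochondrial membrane, was at 104, 146 and 162 in flox and 128, 100.2 and 128 in ΔIEC adjacent tissue, and at 31.0, 28.4 and 37.6 in flox and 30.7, 24.0 and 90.2 in ΔIEC tumours. For each gene every tumour was below every adjacent library, with ΔIEC tumour 3 the highest tumour. The differences in flox mice were -1.58, -1.54 and -2.04 for Mgst3, Mgst2 and Mgst1, and those in ΔIEC mice were -1.10, -1.01 and -1.51, with adjusted p at or below 0.00386 in flox and 0.0311 in ΔIEC mice. The ΔIEC calls of Mgst1 and Mgst2 were each lost in 4 of the fits that left out 1 ΔIEC library (adjusted p up to 0.0728 and 0.107). For Mgst1 these were without adjacent library 1 or 3 or tumour 1 or 2, and for Mgst2 without adjacent library 1 or 2 or tumour 1 or 2. The call of Mgst1 was also lost with only the groups compared (0.0778), and that of Mgst2 with protein-coding rescaling (0.0561) and with no filter (0.0551). With epithelial scaling Mgst1, Mgst2 and Mgst3 were not called in ΔIEC mice (0.0691, 0.36 and 0.115), nor was Mgst2 in flox mice (0.149). A minimum difference of 0.5 also lost the ΔIEC calls of Mgst1, Mgst2 and Mgst3 (0.159, 0.405 and 0.14).

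The 30 members below the limit were at or near 0. They were listed at 0 in every library for 13 genes, among them 11 Sult genes, Ugt1a8 and Ugt3a1. Another 17 were above 0 in at least 1 library, and Ugt2b36 reached the highest value of these with 2.15 FPKM in 1 adjacent library. The Ugt2a genes stayed at or below 0.075 FPKM.

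The whole-tissue values do not tell fewer cells of a type from less RNA per cell, and cell type markers moved with the members. In flox tumours 11 of 12 general epithelial genes and 11 of 14 absorptive colonocyte genes fell, and in ΔIEC tumours 5 and 10. The summed level of the absorptive genes was 2554 to 9850 FPKM in adjacent tissue and 271.3 to 557.4 in tumours, and no gene of either list was at 0 throughout. Of the goblet cell genes 8 of 10 fell in flox and 9 of 10 in ΔIEC tumours. Among genes of other cells, 8 of 14 fibroblast genes and 7 of 12 endothelial genes rose in flox tumours, and 2 and 0 in ΔIEC tumours. Their medians were 1.40 and 1.10 in flox and 0.91 and 0.50 in ΔIEC mice, and 0% of either list was called in the interaction. Summed fibroblast levels were 102.8 to 466.5 FPKM in adjacent tissue and 426.1 to 923.3 in tumours. Over all genes 19.7% fell and 16.6% rose in flox tumours, and 15.5% fell and 13.9% rose in ΔIEC tumours. Of 8 neutrophil genes tested 7 rose in each genotype. Of 9 tested genes of crypt base and progenitor cells 7 rose in flox tumours and 5 rose and 1 fell in ΔIEC tumours, with medians of 1.12 and 1.23. Their part in the fall of the members was not tested.

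Set against the general epithelial genes themselves, a smaller set of members stood out. When each library was scaled to the mean of the 12 epithelial genes, an alternative chosen after the data were seen, 20 members were called lower in flox tumours (75% of all genes were called, 3.62% lower) and 15 in ΔIEC tumours (53.2% called, 4.04% lower). All 6 Ugt1a genes were among them in both genotypes, with Ugt2b34, Sult1a1, Sult1d1, Sult1b1, Gstm1, Gstm3, Gstk1 and Gstt3. The flox count includes Ugt2b5, which was not called on the unscaled values of all libraries with a pseudocount of 1. Sult1a1 was at -4.19 and -3.13 and Ugt1a1 at -3.33 and -3.24 on this scale. The epithelial list includes Cdx1 and Cdx2, which fell strongly themselves, and the scaling moved the median of all genes to 0.95 in flox and 0.60 in ΔIEC mice.

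On that scale 7 members were called higher in flox tumours, namely Gsta4, Gstm5, Gstm7, Gsto1, Gstp3, Gstz1 and Sult6b1, where 71.4% of all genes were. In ΔIEC tumours Gsta4 and Gstm5 were, with 49.2% of all genes. Gsta4 was at 1.99 (adjusted p = 0.0011) and 1.75 (adjusted p = 0.00481), and Gstm5 at 1.63 (adjusted p = 0.000635) and 1.50 (adjusted p = 0.00265). Gsta4 and Gstm5 were also called higher in both genotypes after quantile normalization and after rescaling to the protein-coding total, with Gsta4 at 1.25 and 1.29 and Gstm5 at 0.91 and 1.04 under the latter. The median of the Gsta genes turned from -0.40 and -0.21 to 0.03 and 0.08 under the protein-coding rescaling, whereas the medians of the Ugt1a, other Ugt, Sult, Gstm, other Gst and Mgst genes stayed below 0 under each scaling tried.

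Adjacent libraries differed among themselves, and of the members 3 Ugt genes differed most. Other Ugt genes varied less, with the lowest library at 53.7% of the highest for Ugt2b34 and 70.7% for Ugt2b35. The highest adjacent library was more than 5 times the lowest for 3 members, Ugt2b5, Ugt1a1 and Ugt1a6a, or 8.1% of those tested, against 11.9% of all genes, and the median ratio was 2.13 for members and 1.71 for all genes. As a percentage of the highest adjacent library, Ugt1a1 stood at 8.02 and 81.3 in flox libraries 1 and 2, below flox library 3, and at 68.3, 17.3 and 10.7 in ΔIEC libraries 1 to 3. Flox library 1 and ΔIEC libraries 2 and 3 were the low ones, and the same 3 were lowest for Ugt1a6a, Ugt2b5 and Sult1d1. These 3 libraries were also lowest in the summed absorptive colonocyte markers, at 3545, 2554 and 3096 FPKM. Flox libraries 2 and 3 and ΔIEC library 1 held 7864, 9850 and 7636 FPKM of those markers. The part of colonocyte content in the spread of the members was not tested. For Gstm1 the lowest adjacent library was still at 61.3% of the highest.

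**Figure D4:**
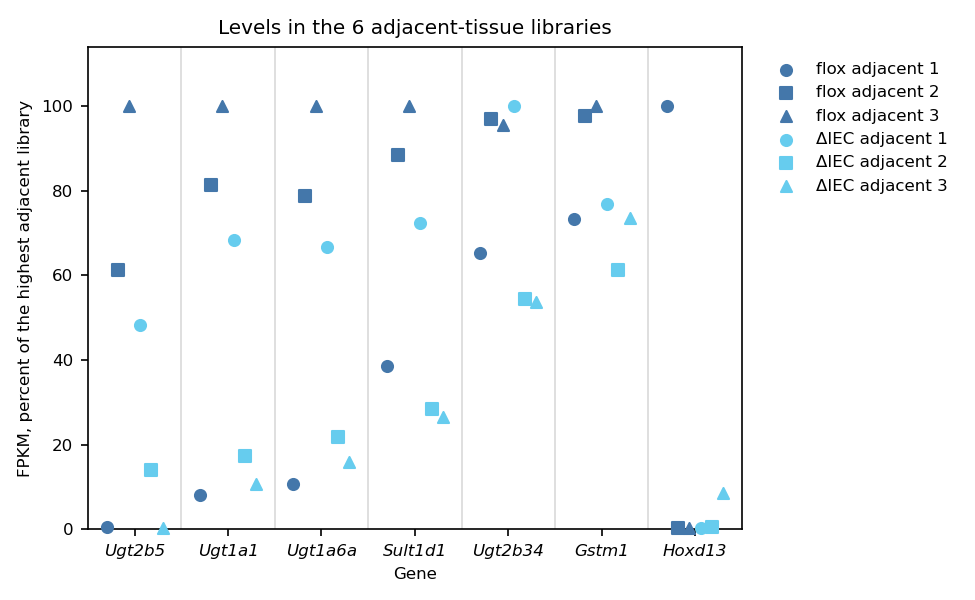
FPKM of 6 members and of Hoxd13 in the 6 adjacent-tissue libraries, as a percentage of the highest of them (y axis, from 0), with colour for genotype and shape for replicate. Ugt2b5, Ugt1a1 and Ugt1a6a are at or below 15.9 in flox library 1 and ΔIEC library 3, where Hoxd13 is highest and at 8.62.

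Some genes of distal position also differed among the adjacent libraries. Hoxd13, a homeobox gene of the most distal gut, was at 31.0, 0.0461 and 0.0735 FPKM in flox and 0.0529, 0.138 and 2.67 in ΔIEC adjacent tissue, and at 42.5 to 69.6 in all tumours. Hoxb13 was at 121, 10.2 and 1.56 in flox and 30.1, 39.5 and 103 in ΔIEC adjacent tissue, and at 40.9 to 53.4 in tumours. The adjacent libraries highest in both genes were flox 1 and ΔIEC 3. Other genes of the list had another order: Hoxa13 was at 97.3% of its highest library in flox library 2, and Hoxd10 and Hoxd11 were at 15.9% and 11.2% in flox library 3 and 5.48% and 4.87% in ΔIEC library 3. Of the 6 tested genes of the distal list 4, the Hoxd genes 10 to 13, rose in tumours of each genotype. The position of each sample along the colon is not given in the labels, and its part in the differences was not tested. Flox adjacent library 1 was 33.0 times the mean of flox tumours for Sult1a1, 13.2 times for Sult1d1 and 8.79 times for Ugt1a7c. It was 6.49 times that mean for Ugt1a1 and 4.4 times for Gstm1. These genes were picked, and for Gsto1 the same library lay within the range of the flox tumours. Such ratios rest on that library alone and do not test position. Without flox adjacent library 1, 29 members fell in flox mice, and without ΔIEC adjacent library 3 the number in ΔIEC mice was 23.

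The loss of Synbindin in epithelial cells was not accompanied by a called change of any member. Trappc4 itself was not called in either tissue, although every ΔIEC library was below every flox library. A missing call therefore does not show that a member was unchanged. In adjacent tissue limma called 0 of 37 members and 0% of all genes (smallest adjusted p of a member 0.931), with 4 members and 702 of 16970 genes at an unadjusted p below 0.05. In tumours the counts were again 0 and 0% (smallest adjusted p 1), with 1 member and 317 genes at an unadjusted p below 0.05. Nominally, 35 of 37 members were lower in ΔIEC adjacent tissue, with a median of -0.35 (all genes -0.03), and 30 of 37 were higher in ΔIEC tumours, with a median of 0.15 (all genes -0.01). With epithelial scaling the counts were closer to even: 21 of 37 were lower in adjacent tissue (median -0.07, all genes 0.22) and 21 of 37 higher in tumours (median 0.06, all genes -0.09). The members were measured in the same libraries, so these counts are not of independent events. ΔIEC adjacent libraries 2 and 3 and flox adjacent library 1 were also the lowest in absorptive colonocyte markers. The part of this in the adjacent counts was not tested. With epithelial scaling 0 members were called in either comparison, against 0.00589% of all genes in adjacent tissue.

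The 3 members with the smallest unadjusted p in adjacent tissue were of the pi and zeta classes. Gstp2 was at 40.6, 45.4 and 54.3 FPKM in flox and 35.1, 26.5 and 32.4 in ΔIEC adjacent tissue, a difference of -0.56 (SE 0.16, adjusted p = 0.931). Gstz1 was at 13.4, 15.7 and 16.1 against 12.8, 12.8 and 11.04 in ΔIEC adjacent tissue (-0.28, adjusted p = 0.931). For both genes every ΔIEC library was below every flox library, as for 5.14% of all genes, and for 0 members was every ΔIEC library above (2.56% of all genes). Gstp1 differed by -0.51 with overlap (adjusted p = 0.931). The other member at an unadjusted p below 0.05 was Gsta4 of the alpha class, which differed by -0.92 with overlap and was not called. The 2 members with higher means in ΔIEC tissue, Ugt2b35 and Gstm2, differed by 0.13 and 0.02.

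In tumours Gsto1 was at 233, 257 and 169 FPKM in flox and 148, 132 and 151 in ΔIEC mice, the only member whose tumour groups did not overlap (lower in ΔIEC tumours, as for 3.74% of all genes, with 3.03% higher). Its difference of -0.59 (SE 0.24) was not called (adjusted p = 1). Gsta4 differed by -0.74 (SE 0.41, adjusted p = 1) and Gstm4 by -0.05. The nominally higher members with the smallest p, Gstm2, Gstm6 and Ugt2b34, differed by 0.45, 0.32 and 0.40. For Sult1a1 in adjacent tissue the difference was -0.96 with an SE of 0.51.

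The interaction test, which compares the tumour difference between genotypes, called 0 of 37 members and 0% of all genes (smallest adjusted p of a member 1), with 1 member and 448 genes at an unadjusted p below 0.05. Nominally the interaction (the ΔIEC minus the flox tumour difference) was above 0 for 35 of 37 members, with a median of 0.52 (all genes 0.01). With epithelial scaling it was above 0 for 25 of 37, with a median of 0.11 (all genes -0.33). The member at an unadjusted p below 0.05 was Gstp2 (0.60, SE 0.22, adjusted p = 1). On the unscaled values Sult1a1 had the largest interaction (1.46, SE 0.72, adjusted p = 1), Gstz1 was at 0.31, and Gsto1 and Sult6b1 were the members with negative values (-0.30 and -0.04). The flox and ΔIEC tumour comparisons share no library, but each adjacent group enters both its tumour difference and the interaction.

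Genes that feed the conjugating reactions were read from lists chosen for their roles. For glucuronidation 3 of 5 genes of UDP-glucuronic acid supply fell in each genotype and 0 rose. That is 60.0% of the list, where 36.3% of all genes were called in flox and 29.4% in ΔIEC mice. Ugdh, the dehydrogenase that makes UDP-glucuronic acid, was at 129 to 567 FPKM in adjacent tissue and 32.6 to 53.3 in tumours, and fell by 3.12 and by 2.40 (adjusted p = 0.00185 and 0.00861). Like the Ugt1a genes, it was lowest in flox library 1 and ΔIEC libraries 2 and 3 among adjacent libraries, at 171, 129 and 182. Ugp2, which makes UDP-glucose, fell by 1.28 and, as a difference of -0.96, in ΔIEC mice, and the nucleotide sugar transporter Slc35a3 fell by 1.08 and by 0.90.

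For sulfation 7 of 13 genes of PAPS supply and sulfate transport fell in flox and 6 in ΔIEC mice, and 0 rose. The shares called were 53.8% and 46.2%, beside 36.3% and 29.4% of all genes. The PAPS synthases Papss2 and Papss1 fell by 1.71 and 0.80 in flox mice and by 1.10 and 0.67 in ΔIEC mice. The sulfate transporter Slc26a2 fell by 3.13 and by 2.78, and the chloride and sulfate exchanger Slc26a3, itself a colonocyte marker, fell by 5.07 and by 4.97.

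Glutathione supply did not move one way. Of 19 genes 4 rose and 7 fell in flox mice, 3 rose and 3 fell in ΔIEC mice, and the medians were 0.07 and 0.01. The share called was 57.9% in flox mice (36.3% of all genes) and 31.6% in ΔIEC mice, the latter close to the 29.4% of all genes. Slc7a11, which imports cystine for glutathione synthesis, rose by 2.37 and 1.94 (adjusted p = 0.000453 and 0.00168), from 1.15 to 3.25 FPKM in adjacent tissue to 7.58 to 18.4 in tumours. The glutathione reductase Gsr rose by 0.44 and 0.49. Dpep1, which cleaves cysteinylglycine after glutathione breakdown, fell by 6.02 and by 5.74, and the glutamate-cysteine ligase subunit Gclm by 0.68 and by 0.50.

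The regulators and targets linked to these enzymes were also mixed. Of 26 tested genes of the NRF2 system 5 rose and 12 fell in flox mice, and 4 rose and 5 fell in ΔIEC mice, which is 65.4% and 34.6% of the list beside 36.3% and 29.4% of all genes. Nqo1, a classical target, fell by 1.55 (adjusted p = 0.0187) and by 1.26 (adjusted p = 0.0498), whereas Hmox1, heme oxygenase, rose by 2.70 and 2.16. Of 24 receptors and intestinal transcription factors 17 fell in flox and 15 in ΔIEC mice, and 1, Ahr, rose in each (by 0.79 and 0.66). That is 75.0% and 66.7% of the list. Cdx2 fell by 4.32 and by 3.58, Vdr by 3.15 and by 2.96, Nr1i2 (the pregnane X receptor) by 1.76 and by 1.15, and Hnf4a by 1.52 and by 1.36.

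Of 14 tested efflux transporters 7 fell and 3 rose in each genotype. In each genotype 71.4% of the list was called, beside 36.3% of all genes in flox and 29.4% in ΔIEC mice. Abcb1a (P-glycoprotein), Abcg2 and Abcc3, which export drugs and conjugates, fell by 4.44, 2.86 and 2.30 in flox mice and by 3.20, 1.98 and 1.99 in ΔIEC mice. Abcc2, an apical exporter of glucuronide and glutathione conjugates, rose by 2.91 and 3.39 (adjusted p = 0.0023 and 0.00204), from 0.181 to 1.98 FPKM in adjacent tissue to 10.8 to 44.9 in tumours, with no overlap. Abcc4 rose by 1.77 and 1.88. Of 7 tested deconjugating enzymes Gusb, the lysosomal glucuronidase, rose by 0.90 and 0.84, and the sulfatases Arsa and Arsb fell. That is 42.9% called in each genotype, beside 36.3% and 29.4% of all genes. Other conjugating enzymes, such as methyl- and acetyltransferases, showed 4 genes higher and 4 lower of 15 tested in flox mice and 3 and 2 in ΔIEC mice, or 53.3% and 33.3% called, the latter near the 29.4% of all genes. In the genotype comparisons and the interaction 0 genes of these lists were called.

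**Figure D5:**
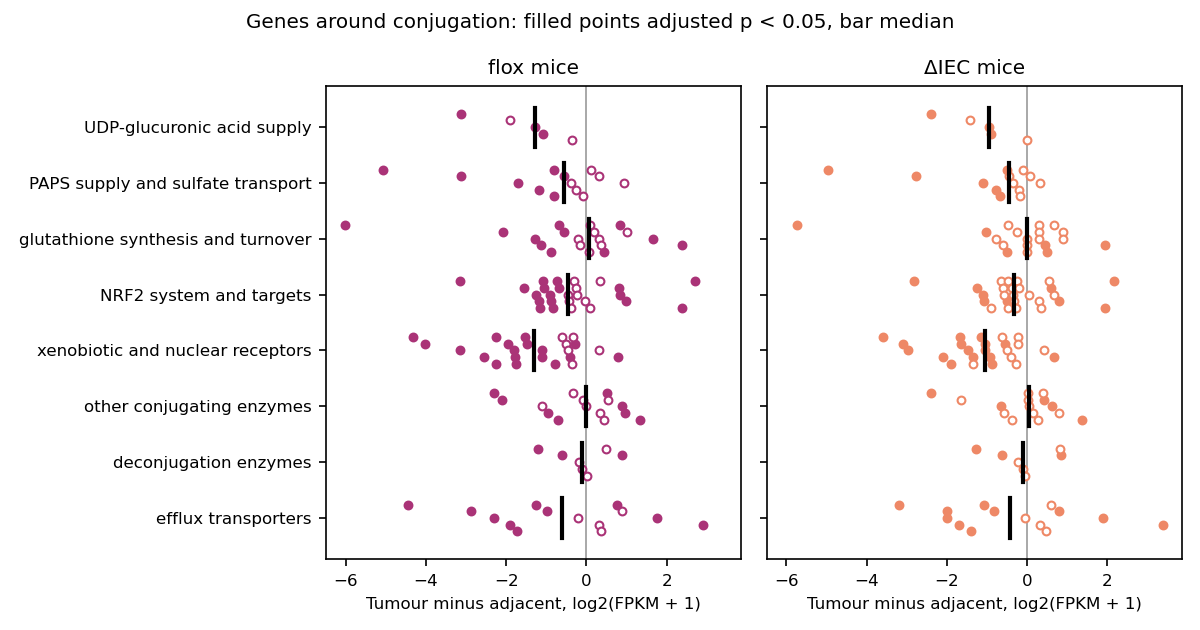
Difference between tumour and adjacent tissue (x axis, log2(FPKM + 1)) of each tested gene in 8 lists around conjugation (y axis), in flox (left) and ΔIEC mice (right), with filled points called, open points not called and a bar at the median of the list. Donor supply for glucuronidation and the receptors have medians between -1.29 and -0.96, while glutathione genes are spread on both sides of 0.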

How the data were processed

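The deposited table holds log2(FPKM + 1) values per transcript for 12 libraries, as its values show. The kit was strand-specific, per the labels' protocols. FastQC, STAR 2.5, Cuffnorm and GRCm38 are named, per the submitters' processing notes, without their roles or settings. All 12 columns were matched to a library by the code in its description (0 unmatched).

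The log2 values deposited by the authors were converted to FPKM and added up by gene with GENCODE M21 on GRCm38, which matched 118004 of 123062 transcripts (95.9%). The rest held 4.36% to 7.44% of a library's FPKM. Genes at 1 FPKM or more in at least 3 libraries (16970) were fitted with limma 3.58.1 in R 4.3.3 on log2(FPKM + 1), a pseudocount of 1, with a mean per group, no block, 8 residual degrees of freedom and eBayes with trend and robust. Calls are two-sided, at a Benjamini-Hochberg adjusted p below 0.05 in each contrast. Differences on this scale understate those of low genes, and FPKM values allow no count model. The procedure was tested on simulated data. Libraries of a group correlated at 0.912 to 0.962.

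The members and lists were chosen with earlier results of these data known. Library values are given for the 3 most abundant members of each enzyme class, up to 8 of the largest called differences in each tumour comparison among members at 5 FPKM or more, members of lowest p in a contrast without calls, and those called in 1 genotype only. Ugt2b5, Gsta4 and Gstm5 were added after their values were seen. The alternatives were other pseudocounts, filters, scalings, variance models and sample sets, replicate blocks, a minimum difference, summed near-identical genes and leaving out each library. One item of the lists is not reported here.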

Additional observations from a re-analysis of the deposited data

How the results depend on the processing

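Members called in either direction numbered 27 to 29 in flox mice under 11 of the 13 alternatives (27 with epithelial scaling, of which 20 lower and 7 higher), 24 with a minimum difference of 0.5 and 21 of 31 features with near-identical genes summed; leaving out 1 library gave 27 to 29. In ΔIEC mice the count was 10 with a minimum difference of 0.5, 17 with epithelial scaling (15 lower, 2 higher), 19 of 31 with genes summed and 23 to 27 otherwise; leaving out 1 library gave 21 to 26. The genotype comparisons and the interaction gave 0 calls under each alternative run; the interaction cannot be fitted on fewer groups. Unknown depth limits the values near 0.

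A replicate block by the number in the titles gave 27 calls in flox and 26 in ΔIEC mice, and one by the code in the descriptions 27 and 27. The title block joins libraries of both genotypes and of different codes that share only a number. For the 5 pairs of adjacent and tumour libraries with the same code the deviations correlated at 0.049, -0.192, 0.105, 0.053 and 0.17. Adjacent and tumour libraries with different codes correlated at -0.196 to 0.235. These values cannot decide whether a shared code marks the same animal, because both kinds of pair cover the same range. The fit without a block treats the libraries as unpaired. With the title block Gstm6 was called lower and Gstm5 higher in ΔIEC mice (adjusted p = 0.0342 and 0.0267, limma). Gstp2 was not called with that block (adjusted p = 0.0639). With the code block Gstm6 was called lower and Gstm5 higher too (adjusted p = 0.0478 and 0.0494).

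Some members changed sign, and the cause was not tested. With epithelial scaling the flox tumour differences became 0.177 for Gsta1, 0.726 for Gsta3, 0.03 for Gstm4, 0.561 for Gsto1, 0.093 for Gstp2, 0.944 for Gstp3, 0.524 for Gstz1, 0.462 for Sult6b1 and 0.258 for Ugt2b35. The ΔIEC ones became 0.428 for Gsta1, 0.52 for Gsta3, 0.002 for Gstm6, 0.29 for Gstp2, 0.449 for Gstz1, 0.226 for Sult6b1 and 0.105 for Ugt2b35. With protein-coding rescaling Gsta3, Gstp3 and Sult6b1 were at 0.026, 0.337 and 0.105 in flox mice, and Gsta3, Gstz1 and Sult6b1 at 0.078, 0.017 and 0.001 in ΔIEC mice. Between genotypes only the members named in the report were followed one by one, and more members changed sign with epithelial scaling, as the counts there show. Of those named, adjacent Gstm2 was at -0.026 with median centring, adjacent Gstz1 at 0.021 with epithelial scaling, the Gstz1 interaction at -0.075 with epithelial scaling and the Sult6b1 interaction at 0.061 with quantile normalization and 0.018 with median centring.

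Leaving out 1 library moved Gstp3 from -0.218 to 0.22 in flox mice. In ΔIEC mice it moved Gsta1 from -1.042 to 0.564, Gsta3 from -0.461 to 0.232 and Gstp3 from -0.172 to 0.786. It moved Gstm2 in adjacent tissue from -0.057 to 0.078, Gstm4 in tumours from -0.11 to 0.013 and the Sult6b1 interaction from -0.228 to 0.094. Of the tumour differences that changed sign, those of Gstm4, Gstp2 and Gstz1 in flox mice and of Gstp2 in ΔIEC mice were called on the unscaled values with all libraries; the others were not.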
